A study of Mus musculus with 8 samples.

Results

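The endoplasmic reticulum (ER) of a hepatocyte folds and exports most of the proteins of the blood plasma. Nascent chains enter the ER through the SEC61 translocon, lose their signal peptide to the signal peptidase, and are folded by the HSP70 chaperone BiP, by the lectin chaperones and by protein disulfide isomerases. Chains that fail to fold are returned to the cytosol and degraded (ER-associated degradation, ERAD). When unfolded chains accumulate, the sensors IRE1, PERK and ATF6 start the unfolded protein response (UPR), in which the transcription factors XBP1 and ATF6 induce chaperone and ERAD genes and PERK phosphorylates eIF2α, the entry to the integrated stress response (ISR).

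The genes described here are 41 listed genes of ER folding, translocation, ERAD and UPR sensing, taken by their symbols from a table of 33212 genes. All 41 were found, and all 41 were among the 15291 genes with enough counts to be tested. Liver RNA of 4 Nnmt KO mice and 4 control mice was sequenced, with 1 library per mouse. All mice were male, of the C57BL/6 strain by their labels, and were fed for 8 weeks on the methionine- and choline-deficient (MCD) diet, which damages the liver. The Nnmt KO mice carried Nnmt flox/flox and Alb-Cre, in which the albumin promoter drives Cre, and the study's text calls this knockout hepatocyte-specific. Nnmt is the nicotinamide N-methyltransferase gene, and its loss in single cell types was not measured here. The control mice carried Nnmt flox/flox without Cre by the study's text and are labelled WT. The age of these mice and whether they were littermates are not given in the sources used here, and no group on a normal diet is part of the comparison. Letters a to d name the libraries of a genotype, because the columns of the count table carry no mouse number.

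The libraries held between 75020072 and 87934362 counts. Levels are given as CPM, the count scaled to the library's size after TMM scaling, and a log2 fold change is Nnmt KO minus control, so that a negative value means a lower level in Nnmt KO mice. Nnmt was at 31.8, 44.8, 68.9 and 83.0 CPM in Nnmt KO libraries a to d and at 112, 224, 134 and 84.9 CPM in control libraries a to d. The genotypes did not overlap, but KO library d and control library d were close. The log2 fold change of Nnmt was -1.28 (standard error 0.33), with an adjusted p of 0.123 by edgeR's quasi-likelihood test. The summed hepatocyte markers were between 72404 and 128999 CPM in Nnmt KO mice, lowest in library a, and between 88612 and 137624 CPM in control mice. Alb, the albumin gene, made up most of this sum in every library. In whole liver, fewer cells of a type and less RNA per cell cannot be told apart.

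The sequences through which the UPR acts were looked for in the promoters of the listed genes. RefSeq promoters of build GRCm38.p6, from 250 bases before to 50 bases after the gene start, were at hand for 34 of the 41 genes, and the letters of each motif were searched on both strands. The ER stress response element (ERSE), CCAAT and CCACG with 9 free bases between them, binds the factor NF-Y at its CCAAT end and ATF6 or XBP1 at its CCACG end. It was found in 9 of the 34 promoters (26.5%), against 39 of all 32851 promoters (0.119%). The 10 ERSE matches are shown because they mark the members with the textbook UPR element. Capitals mark the outer blocks, each line reads 5′ to 3′ on the strand of the gene, and CGTGG before ATTGG is the same element on the opposite strand:
Hspa5, chr2:34772020-34772048, plus strand: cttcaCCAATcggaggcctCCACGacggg
Hsp90b1, chr10:86705633-86705661, minus strand: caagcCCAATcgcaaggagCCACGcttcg
Hsp90b1, chr10:86705528-86705556, minus strand: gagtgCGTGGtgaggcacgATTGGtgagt
Calr, chr8:84847070-84847098, minus strand: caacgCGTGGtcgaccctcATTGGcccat
Canx, chr11:50325795-50325823, minus strand: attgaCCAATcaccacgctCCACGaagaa
Pdia6, chr12:17266486-17266514, plus strand: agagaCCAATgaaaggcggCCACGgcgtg
Dnajc3, chr14:118937822-118937850, plus strand: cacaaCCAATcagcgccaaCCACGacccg
Creld2, chr15:88819515-88819543, plus strand: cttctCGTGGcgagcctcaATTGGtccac
Syvn1, chr19:6046527-6046555, plus strand: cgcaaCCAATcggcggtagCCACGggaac
Derl3, chr10:75893237-75893265, plus strand: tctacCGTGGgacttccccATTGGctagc

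The matches began between 44 bases (Syvn1) and 212 bases (Hsp90b1) before the RefSeq gene start. A shorter form, ERSE-II (ATTGG and CCACG with 1 free base between them), was found in the promoters of Herpud1 and Dnajb11 and in 12 of all promoters (0.0365%). In Dnajb11 it began 7 bases after the gene start, and that match is not shown. Herpud1 is shown with a further motif, the CARE letters TGATGCAA read by ATF4 and its partners, which were in 1 of the 34 promoters (2.94%) and in 0.895% of all promoters. The XBP1 element written as TGACGTGA was in the Hspa5 promoter alone among the 34 and in 0.441% of all promoters, and written as TGACGTGG it was in 0 of the 34 and in 0.676% of all promoters. These matches, with the motif in capitals, were:
Herpud1 ERSE-II, chr8:94386372-94386392, plus strand: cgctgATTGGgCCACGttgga
Herpud1 CARE, opposite strand, chr8:94386312-94386329, plus strand: gcgggTTGCATCAgcccg
Hspa5 TGACGTGA, chr2:34771928-34771945, plus strand: agcaaTGACGTGAgttgc

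A match describes the letters in these windows, and no binding was measured. The promoters of Sec61a1, Hyou1, Spcs3, Derl1, Atf6, Manf and Ssr2 were not in the table.

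None of the 41 genes passed an adjusted p of 0.05 in the comparison of Nnmt KO with control livers by edgeR's test, which 0.32% of all tested genes did. At an unadjusted p of 0.05, 5 members were lower in Nnmt KO mice, namely the UPR sensors Ern1 and Eif2ak3, the factor Xbp1, the translocon gene Ssr2 and the signal peptidase gene Spcs2, and 1 was higher, the folding cofactor Creld2. These 6 are 14.6% of the members, where 12.6% of all tested genes passed the same limit, so that the share was near the background. By direction, 7.13% of all tested genes were lower and 5.45% higher at this limit. By DESeq2's Wald test, 478 of all genes passed an adjusted p of 0.05, against 49 by edgeR's test. Of the 478 genes called by DESeq2's Wald test, 2 were members, Creld2 (adjusted p = 0.0185) and Ern1 (adjusted p = 0.0218). The libraries of the genotypes did not overlap for 3 members (7.32%), Ern1, Spcs2 and Creld2, while this held for 8.16% of all tested genes (4.81% with lower and 3.34% with higher KO libraries).

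The differences were small. The log2 fold changes of the members lay between -0.49 and 0.55, with a median of -0.04 against 0.02 over all tested genes. The 95% interval of the fold change was inside 1.5-fold in either direction for 31 of the 41 genes and inside 2-fold for 40, the exception being Herpud1 with a lower bound of -1.10. Of the 41, 28 were below 0, where 47.7% of all tested genes were. Scaling by library size only raised the fold changes of all genes, to a median of 0.07, and left 20 members and 39.2% of all tested genes below 0. The 8 members that changed sign there had been at -0.04 or nearer to 0. Without KO library a, 19 members were below 0 (50.3% of all tested genes), and without KO library d, 32 were (48.7%).

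**Figure D1:**
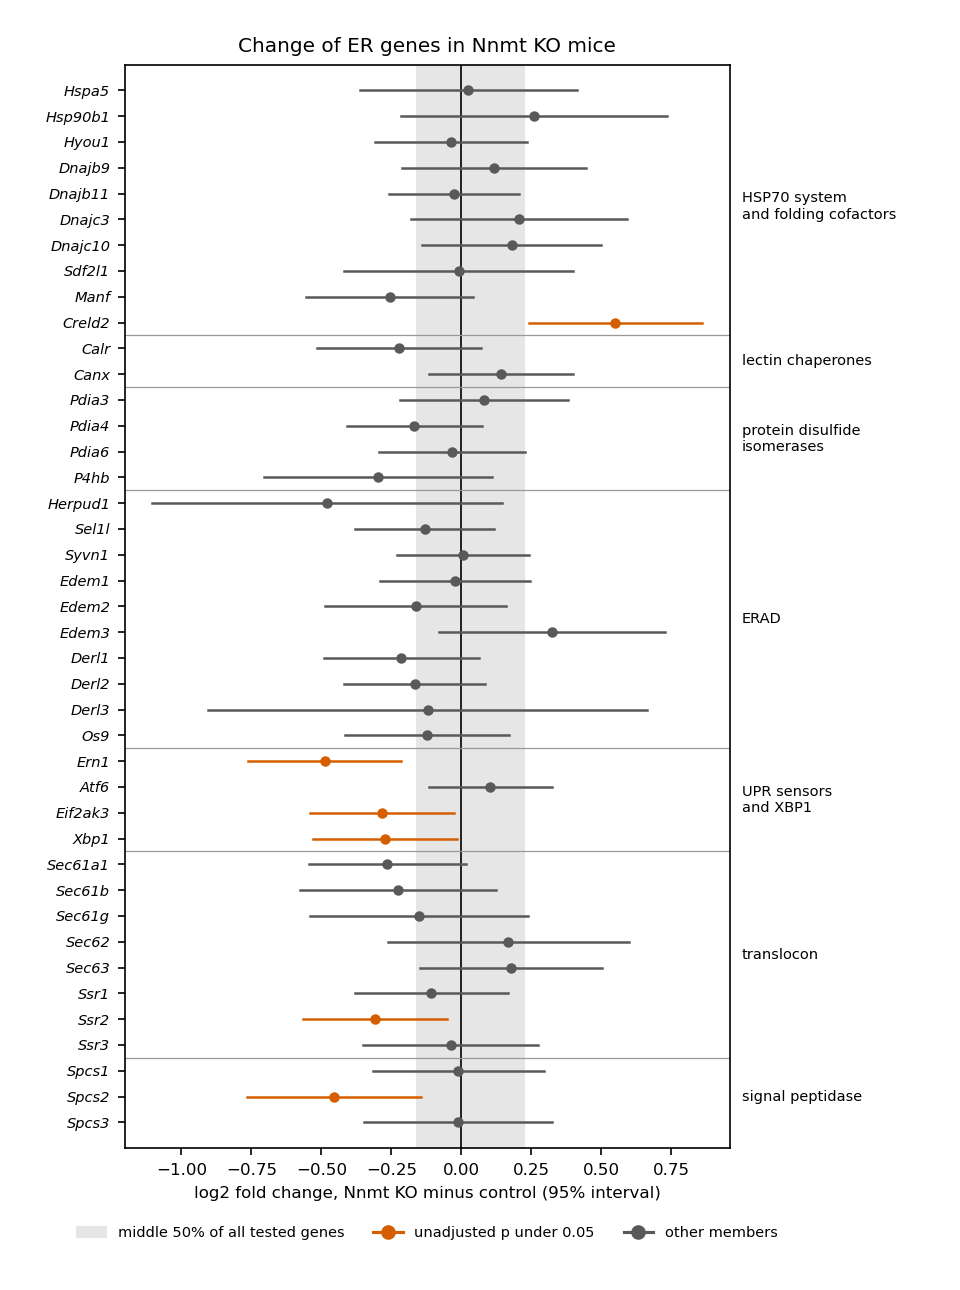
The log2 fold change (Nnmt KO minus control, horizontal axis) of each of the 41 genes with its 95% interval, grouped by role, is drawn over a grey band that holds the middle 50% of all tested genes. The 6 genes with an unadjusted p under 0.05 are orange, and Creld2 alone of them lies to the right of 0.

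The chaperones of the HSP70 system and their cofactors showed no common direction, with 4 of 10 lower and 6 higher and a median of 0.07. Hspa5 (ENSMUSG00000026864), which encodes BiP and is the most used marker of the UPR, lies on chromosome 2 from 34771970 to 34777547. Hspa5 was at 736, 759, 722 and 1030.4 CPM in Nnmt KO libraries a to d and at 745, 610.4, 969 and 871 CPM in control libraries a to d. KO library d was the highest of all 8, the other KO libraries lay within the control range, and the genotypes overlapped. The mean of Hspa5 was 812 ± 146 CPM (SD, n = 4) in Nnmt KO and 799 ± 155 CPM (SD, n = 4) in control mice. Its log2 fold change was 0.02 with a 95% interval from -0.36 to 0.41.

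Creld2 (ENSMUSG00000023272, chromosome 15, 88819646 to 88826683), an ER protein with disulfide isomerase activity that is induced by ER stress, was the member with the largest difference. Creld2 was at 52.5, 59.9, 45.8 and 74.5 CPM in Nnmt KO libraries a to d and at 38.8, 39.6, 42.3 and 38.2 CPM in control libraries a to d. Every KO library was above every control library, and the KO libraries were also more spread, with a coefficient of variation of 21.2% against 4.54%. The Nnmt KO mean was 146% of the control mean (log2 fold change 0.55, standard error 0.14, unadjusted p = 0.00239, adjusted p = 0.121 by edgeR's test). Without KO library d, its highest library, the log2 fold change was 0.41.

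The other 8 genes of this role had unadjusted p-values of 0.0834 or more. Hsp90b1, the HSP90 of the ER, was at 272 to 317 CPM in KO libraries a to c, at 517 CPM in KO library d and at 233 to 363 CPM in control mice. Its log2 fold change of 0.26 (95% interval -0.22 to 0.73) was 0.01 without KO library d. The J-domain cochaperones of BiP had log2 fold changes of 0.12 for Dnajb9, -0.03 for Dnajb11, 0.21 for Dnajc3 and 0.18 for Dnajc10, which was at 0.32 without control library c (unadjusted p = 0.0340 by edgeR's test). Over the 12 alternative settings Dnajc10 ran from 0.10 to 0.32. The nucleotide exchange factor Hyou1 had -0.04, and Sdf2l1, which binds J-domain proteins, had -0.01. Manf, a secreted factor that also binds BiP, had -0.26 (95% interval -0.55 to 0.04, unadjusted p = 0.0834, adjusted p = 0.457 by edgeR's test), and -0.36 without KO library d (unadjusted p = 0.0177). Its values ran from -0.36 to -0.17 over the 12 alternative settings. Creld2 and Manf are both induced by ER stress, and they stood at opposite ends of this group.

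Of the lectin chaperones, which hold glycoproteins during folding, the soluble calreticulin (Calr) and the membrane-bound calnexin (Canx) had fold changes of opposite sign, neither past the limit. Calr (ENSMUSG00000003814, chromosome 8, 84841850 to 84846934) was at 876, 1139, 979.7 and 1121 CPM in Nnmt KO libraries a to d and at 1244, 1267, 1199.9 and 1098 CPM in control libraries a to d. KO libraries a and c were below all control libraries and KO libraries b and d were above control library d. For Calr, the log2 fold change was -0.22 (standard error 0.13, unadjusted p = 0.121, adjusted p = 0.520 by edgeR's test). Canx had a log2 fold change of 0.14 with a 95% interval from -0.11 to 0.40.

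P4hb (ENSMUSG00000025130, chromosome 11, 120560298 to 120573253), the protein disulfide isomerase PDI, was the most abundant member per kilobase of exon, at 1191 CPM per kilobase over the 8 libraries. P4hb was at 2678, 3124, 3276 and 3144 CPM in Nnmt KO libraries a to d and at 3905, 4869, 3541 and 2720.2 CPM in control libraries a to d. Control libraries a to c were above every KO library, and control library d was below KO libraries b to d. The log2 fold change was -0.30 (standard error 0.18, unadjusted p = 0.134 by edgeR's test), and without control library d it was -0.43 with an unadjusted p of 0.0303. Over the 12 alternative settings the value of P4hb ran from -0.43 to -0.14. The other isomerases had log2 fold changes of 0.08 for Pdia3, which works with the lectin chaperones, -0.17 for Pdia4 and -0.03 for Pdia6. No isomerase passed the unadjusted limit with all libraries in the fit.

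In ERAD, 8 of 10 genes were below 0 and 2 above, with a median of -0.13 and none at an unadjusted p of 0.05. Os9 (ENSMUSG00000040462, chromosome 10, 127095650 to 127121131), the lectin that hands misfolded glycoproteins to the ubiquitin ligase, was the most abundant of them per kilobase at 122 CPM per kilobase. Os9 was at 274, 304, 328 and 319.9 CPM in Nnmt KO libraries a to d and at 331, 407, 305 and 291 CPM in control libraries a to d. The genotypes overlapped and the log2 fold change was -0.12 (95% interval -0.42 to 0.17).

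Herpud1, a membrane protein that assembles the ligase complex and whose promoter held both ERSE-II and CARE letters, ran from 145 to 313 CPM in Nnmt KO and from 186 to 432 CPM in control mice. KO library d was the lowest for Herpud1, in contrast to the chaperones. Its log2 fold change of -0.48 had an unadjusted p of 0.119, and of 0.0405 without control library d (log2 fold change -0.65) or 0.0239 without KO library c (-0.73), by edgeR's test. In the other 10 of 12 alternative settings Herpud1 missed the unadjusted limit, and its values ran from -0.73 to -0.23 over the 12. The ligase gene Syvn1 and its partner Sel1l had log2 fold changes of 0.01 and -0.13. The mannosidase-like genes Edem1, Edem2 and Edem3 had -0.02, -0.16 and 0.32, and for Edem3 the unadjusted p of 0.105 became 0.0139 without control library c, at a log2 fold change of 0.50. Over the 12 alternative settings Edem3 ran from 0.15 to 0.50. The retrotranslocation genes Derl1 and Derl2 had -0.21 and -0.17. Derl3 was the least abundant member, at 1.47 CPM per kilobase, and its log2 fold change of -0.12 had the widest interval, from -0.91 to 0.66.

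Among the UPR sensors and XBP1, 3 of 4 genes were lower at an unadjusted p of 0.05, where 7.13% of all tested genes were, with a median of -0.28. None of the 4 passed the adjusted limit in edgeR's test. Ern1 (ENSMUSG00000020715, chromosome 11, 106394650 to 106487852) encodes IRE1α, the kinase and RNase that splices the Xbp1 transcript. Ern1 was at 54.2, 57.2, 58.3 and 42.5 CPM in Nnmt KO libraries a to d and at 74.1, 72.9, 66.7 and 83.9 CPM in control libraries a to d. Every KO library was below every control library. The Nnmt KO mean was 71.3% of the control mean (log2 fold change -0.49, standard error 0.12, unadjusted p = 0.00229, adjusted p = 0.120 by edgeR's test).

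Eif2ak3 (ENSMUSG00000031668, chromosome 6, 70844515 to 70905245) encodes PERK, the sensor that phosphorylates eIF2α. Eif2ak3 was at 31.7, 26.7, 31.1 and 25 CPM in Nnmt KO libraries a to d and at 34.6, 30.1, 37.7 and 37.1 CPM in control libraries a to d. Control library b alone lay inside the KO range. Its log2 fold change was -0.28 (standard error 0.12, unadjusted p = 0.0328, adjusted p = 0.338 by edgeR's test).

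Xbp1 (ENSMUSG00000020484, chromosome 11, 5520659 to 5525893) was the most abundant gene of this role per kilobase, at 57.8 CPM per kilobase. Xbp1 was at 154, 177, 172 and 177 CPM in Nnmt KO libraries a to d and at 218, 211, 222 and 171 CPM in control libraries a to d. Control libraries a to c were above all KO libraries and control library d was inside the KO range. The log2 fold change was -0.27 (standard error 0.12, unadjusted p = 0.0399, adjusted p = 0.367 by edgeR's test). Gene counts do not separate spliced from unspliced Xbp1 RNA, so IRE1 activity was not measured. The third sensor, Atf6, had a log2 fold change of 0.10 (95% interval -0.12 to 0.32). Ern1 kept the unadjusted limit in all 12 alternative settings. Eif2ak3 lost it in 6, with scaling by library size only (unadjusted p = 0.222 by edgeR's test) and without KO library b or d or control library a, c or d, where its log2 fold change was between -0.27 and -0.22. Xbp1 lost it in 7, with scaling by library size only (unadjusted p = 0.0626 by edgeR's test) and without any one of the libraries other than KO library d and control library d, with values between -0.29 and -0.22.

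**Figure D2:**
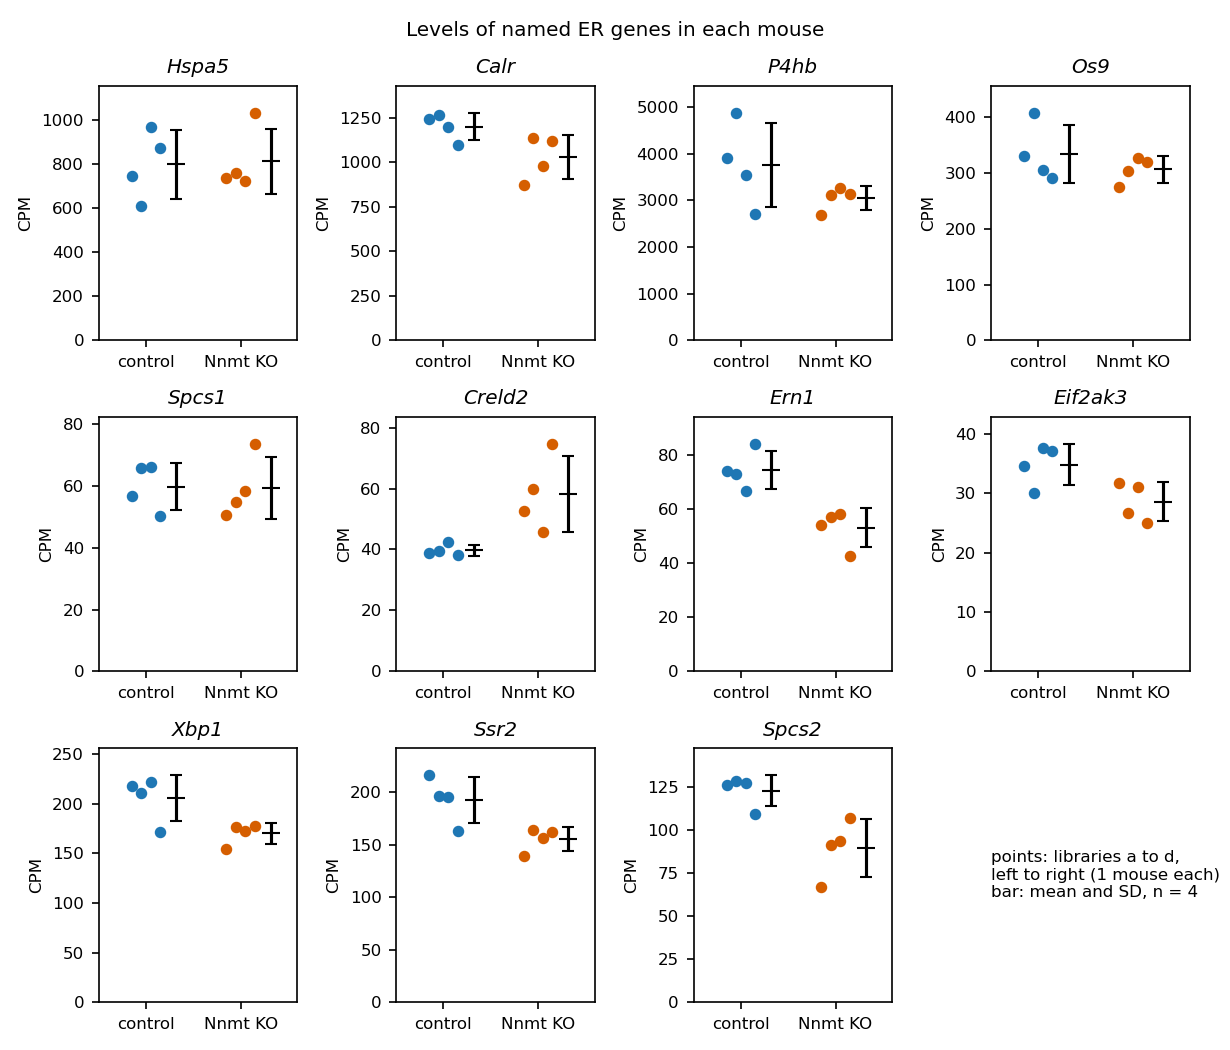
Levels in CPM (vertical axis, from 0) of the 11 genes given library by library, with points for libraries a to d of each genotype and bars for the mean and SD (n = 4). Ern1 and Spcs2 have every Nnmt KO library below every control library, Creld2 has every Nnmt KO library above, and the genotypes overlap for the others.

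In the translocon, 6 of 8 genes were below 0 and 2 above, with a median of -0.13. Ssr2 (ENSMUSG00000041355, chromosome 3, 88575876 to 88588419) encodes the β subunit of the TRAP complex, which helps nascent chains into the channel, and was the most abundant of them per kilobase at 93.4 CPM per kilobase. Ssr2 was at 139.5, 164, 156 and 162 CPM in Nnmt KO libraries a to d and at 216, 196, 196 and 163 CPM in control libraries a to d. Control libraries a to c were above every KO library and control library d was just under KO library b. For Ssr2 this gave a log2 fold change of -0.31 (SE 0.12, unadjusted p = 0.0232, adjusted p = 0.301 by edgeR's test). Without KO library a it was -0.26 and without control library a -0.23, and both missed the unadjusted limit. The exons of Ssr2 share 12.8% of their bases with an opposite-strand gene that was also tested, and whether the counting used strand is not stated.

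The channel gene Sec61a1 had a log2 fold change of -0.26 (95% interval -0.54 to 0.01, unadjusted p = 0.0614 by edgeR's test), and the small channel subunits Sec61b and Sec61g had -0.23 and -0.15. Without KO library d, Sec61b and Sec61g were both at -0.35 and past the unadjusted limit, as were Sec61a1 and Sec61b without control library d, both at -0.34. Over the 12 alternative settings the smallest differences were -0.20 for Sec61a1, -0.15 for Sec61b and -0.07 for Sec61g. Sec62 and Sec63, which serve post-translational translocation, had 0.17 and 0.18. The remaining TRAP genes Ssr1 and Ssr3 had -0.11 and -0.04. Among these genes, Sec62 changed sign without KO library d, to -0.01.

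Of the signal peptidase genes, Spcs2 was lower and the other 2 were near 0. Spcs2 (ENSMUSG00000035227, chromosome 7, 99837569 to 99863462) encodes an accessory subunit. Spcs2 was at 67.0, 91.4, 93.7 and 107 CPM in Nnmt KO libraries a to d and at 126, 129, 127 and 109.7 CPM in control libraries a to d. Every KO library was below every control library, with KO library d and control library d close. The Nnmt KO mean was 73.0% of the control mean (log2 fold change -0.46, standard error 0.14, unadjusted p = 0.00794, adjusted p = 0.201 by edgeR's test).

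Spcs2 was the only member on chromosome 7. Beyond 75 Mb of that chromosome, a boundary chosen with the data known, the median log2 fold change was -0.28 over 554 tested genes of which 37.4% were lower at an unadjusted p of 0.05, against a median of 0.02 and 5.98% on the other autosomes. The part of this regional difference in the value of Spcs2 was not tested. Spcs1 (ENSMUSG00000021917, chromosome 14, 30999826 to 31001672), at 38.5 CPM per kilobase the most abundant of these genes, was at 50.5, 54.8, 58.5 and 73.5 CPM in Nnmt KO libraries a to d and at 56.8, 65.8, 66.2 and 50.2 CPM in control libraries a to d. The genotypes overlapped, with a log2 fold change of -0.01 (95% interval -0.32 to 0.29). Its exons share 16.3% of their bases with an opposite-strand gene. Spcs3 had -0.01 as well.

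Single libraries stood out across many members. KO library d was the highest of the KO libraries for 28 of the 41 genes (68.3%), against 29.2% of all tested genes, and KO library a was the lowest for 26 (63.4%), against 33.2%. Among control libraries, library c was the highest for 17 (41.5%, against 27.0% of all tested genes) and library d the lowest for 21 (51.2%, against 26.5%). The median deviation of the members from their mean over the 8 libraries was -0.20 in KO library a and 0.18 in KO library d on the log2 scale.

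The roles did not share this pattern equally. In KO library d, the median deviation was 0.34 for the HSP70 system, 0.27 for the translocon and 0.31 for the signal peptidase, while it was -0.02 for ERAD and -0.20 for the sensors and Xbp1. These deviations are from the mean over both genotypes and so include the genotype difference. For the sensors and Xbp1, the median was also -0.10, -0.10 and -0.06 in KO libraries a to c, and 0.08 to 0.18 in control libraries. In KO library d, 5 members were at their lowest KO value (12.2%, against 28.5% of all tested genes). They were Ern1, Eif2ak3, Herpud1, Syvn1 and Atf6. Hspa5, Hsp90b1 and Dnajc3 were at their highest KO value there. KO library a, the lowest for most members, had the lowest hepatocyte marker sum (72404 CPM) and the highest sum of stellate cell and fibroblast markers of all libraries, 828 CPM against 368 to 437 in KO libraries b to d and 306 to 520 in control mice. It also had the largest TMM factor, 1.209, where the others were between 0.8763 and 1.064. The part of these differences in the members' values was not tested.

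**Figure D3:**
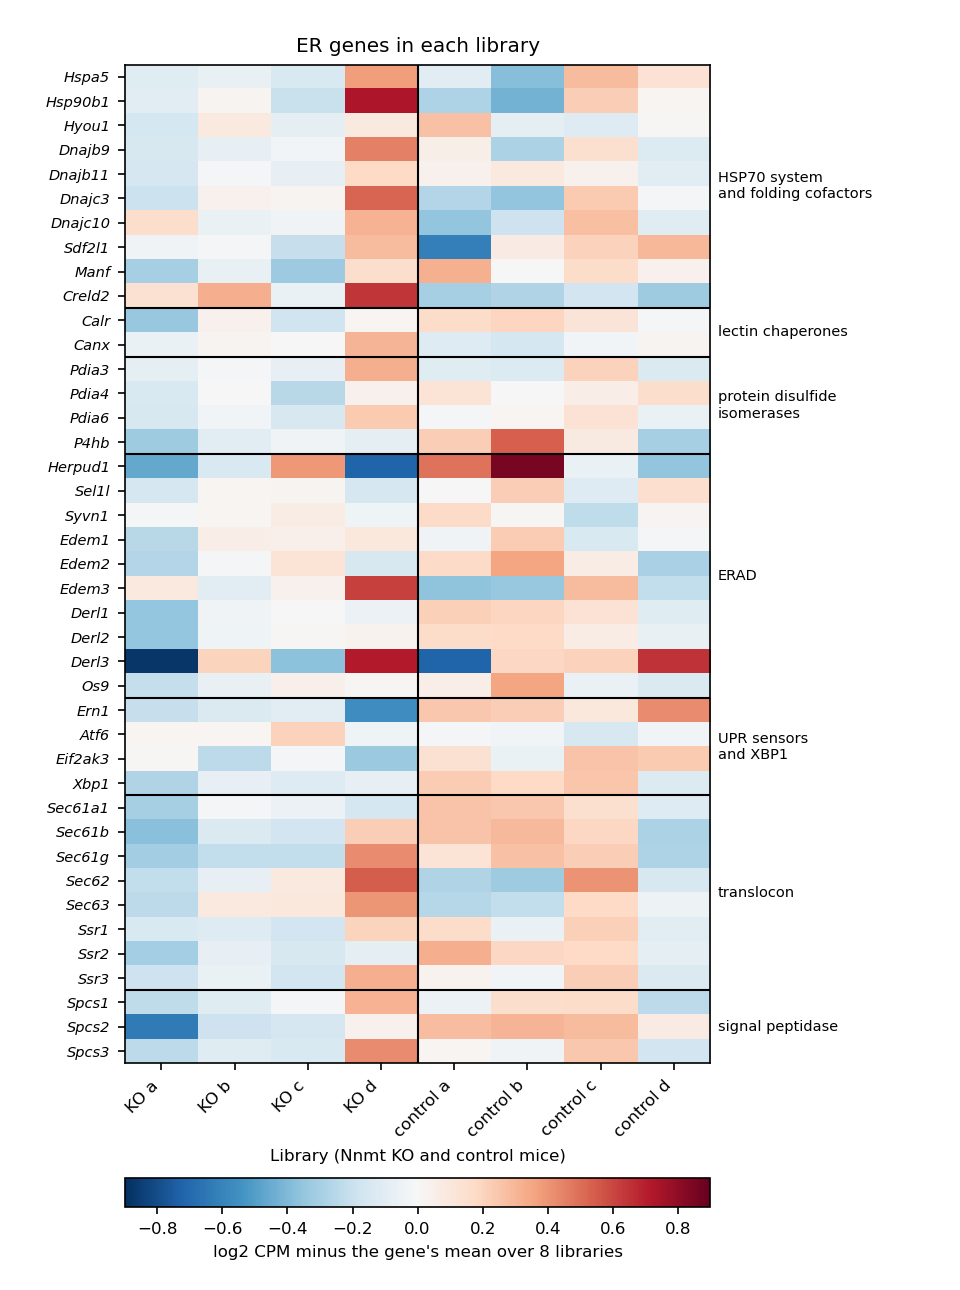
The deviation of each gene's log2 CPM from its mean over 8 libraries (colour, blue low and red high) is shown for 41 genes (rows, by role) and 8 libraries (columns). In KO library a 36 genes are below their mean and in KO library d 29 are above it and 12 below, the lowest of these being Herpud1, Ern1 and Eif2ak3.

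Fold changes were also read by the presence of an ERSE. Of the 9 genes with the element, 3 were lower and 6 higher, with a median log2 fold change of 0.02, and 1 had an unadjusted p under 0.05. Of the 23 genes whose promoter held neither ERSE nor ERSE-II, 17 were lower and 6 higher, with a median of -0.12, and 4 had an unadjusted p under 0.05. Over all tested genes 12.6% did, and both counts were near this share. Of the 11 genes with ERSE or ERSE-II, 5 were lower and 6 higher, with a median of 0.01. Among all tested genes, 47.7% were below 0. Creld2 was the ERSE gene with the largest value and Calr, at -0.22, the one with the smallest.

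Genes of the same pathways that are not among the 41 were read from a list of their own, to set the 41 beside them. Of 63 other ER genes of folding, translocation and N-glycosylation, ERAD and UPR regulation, 46 were below 0 and 17 above, with a median of -0.09 and none past an adjusted p of 0.05. At an unadjusted p of 0.05, 9 were lower and 1 was higher (15.9%, against 12.6% of all tested genes). The lower genes were the signal recognition particle receptor subunit Srprb (-0.61), the catalytic signal peptidase subunit Sec11a (-0.51), the disulfide isomerase Txndc5 (-0.44), the TRAP subunit Ssr4 (-0.35), the glucosidase Mogs (-0.31), the oligosaccharyltransferase subunit Stt3a (-0.28), the ER membrane protein Wfs1 (-0.31), the IRE1 adaptor Traf2 (-0.27) and the ERAD enzyme Ube2j2 (-0.25). Mbtps2, the protease that releases ATF6, was higher (0.47). Sec11a lies in the region of chromosome 7 described above.

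The effectors of the ISR, which PERK and other eIF2α kinases share, were read in the same way. Of 15 such genes, 9 were lower and 1 was higher at an unadjusted p of 0.05, against 7.13% lower and 5.45% higher of all tested genes. Their median log2 fold change was -0.63, and 1, Trib3 at -1.37 (adjusted p = 0.0188 by edgeR's test), passed the adjusted limit. This list was written with earlier results of these libraries known, and its count is not independent evidence of its direction. The lower genes included the transcription factors Atf4 (-0.56), Atf5 (-0.63), Atf3 (-0.70) and Ddit3 (-0.68), and Vldlr was higher (0.52). Asns, for asparagine synthesis, was at -0.81 and the glutathione-degrading Chac1 at -1.74. Nupr1 (-1.75), Fgf21 (-0.85) and Atf5 lie on chromosome 7, but Nupr1 alone of them lies in the region described above. Of 14 cytosolic heat shock genes, which serve folding outside the ER, 2 were lower (Bag3 at -0.30 and Stip1 at -0.27) and 1 was higher (Hspa4l at 0.40) at the unadjusted limit, which 12.6% of all tested genes passed, with a median of 0.10. Bag3 lies in the same region of chromosome 7 as Nupr1.

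**Figure D4:**
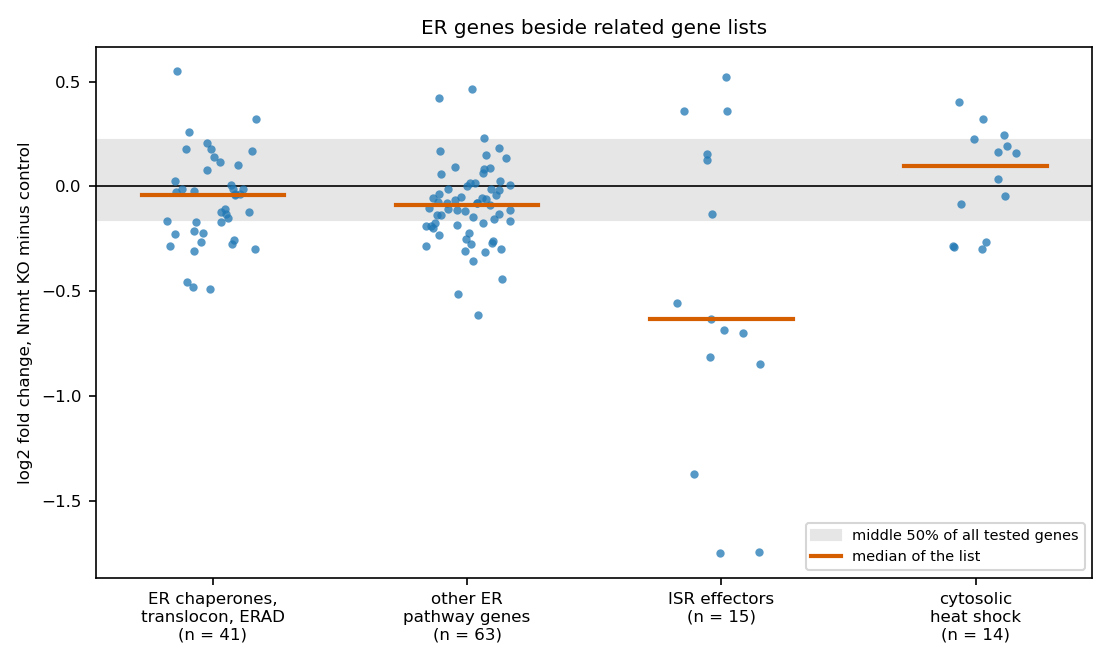
Each point is the log2 fold change (Nnmt KO minus control, vertical axis) of a gene in the 41 ER genes, 63 other ER pathway genes, 15 ISR effectors and 14 cytosolic heat shock genes, with the median of each list as a bar and the middle 50% of all tested genes as a grey band. The medians are -0.04, -0.09, -0.63 and 0.10.

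Markers of other cell types were read in the same libraries. The summed cholangiocyte markers were between 89.4 and 279 CPM in Nnmt KO and between 50.3 and 167 CPM in control mice, the macrophage markers between 553 and 759 and between 373 and 730.1 CPM, and the endothelial markers between 183 and 210 and between 144 and 278 CPM. Most of the cholangiocyte sum was Spp1 in every library, at 71.4 to 243 CPM in Nnmt KO and 34.8 to 138 CPM in control mice. B and plasma cell markers were at 21.1 to 40.9 CPM against 17.9 to 23.1 CPM, and T and NK cell markers at 4.27 to 6.31 against 3.30 to 4.64 CPM. At an unadjusted p of 0.05, 1 of 10 hepatocyte markers was lower, and 1 of 6 cholangiocyte, 2 of 8 stellate cell and fibroblast, 2 of 8 B and plasma cell and 1 of 6 T and NK cell markers were higher. Of all tested genes, 7.13% were lower and 5.45% higher at this limit. The lower hepatocyte marker was Cyp2e1 (-0.67), which lies in the region of chromosome 7 described above. None of 8 macrophage and 6 endothelial markers passed that limit. No listed marker was at 0 in all libraries, and the part of these cells in the members' values was not tested.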

How the data were processed

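Liver RNA of 4 Nnmt KO and 4 control mice was sequenced. The study's text names HISAT2 for alignment and quantification, and the submitters' processing notes name HISAT2 and StringTie and the build mm10. Whether the counting used strand is not stated, and the text (KAPA) and the labels (NEBNext Ultra) name different library kits. The authors deposited 1 table of whole numbers per gene and library, which are treated as estimated counts. The value 4 occurs 2639 times in it, against 1703 times for 2 and 1365 for 6, so that 1 count may not stand for 1 read pair. Of 33212 genes, 12414 were at 0 in every library, and filterByExpr of edgeR, with a minimum count of 10, kept 15291.

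Counts were scaled by TMM and tested with edgeR 4.0.16 (quasi-likelihood test) in R 4.3.3, with Benjamini-Hochberg adjustment over all tested genes. The standard error is that implied by the F statistic. On simulated counts with 200 changed genes, each changed by more than any member was, edgeR called 149 of them. The share that edgeR calls at differences as small as those of the members was not tested. No 2 libraries of a genotype were copies, with a chi-square per degree of freedom between 42.1 and 267. The p-values set the difference between genotypes against the spread between libraries of the same genotype. The labels number the 8 libraries as separate samples. Positions and exon lengths are those of GENCODE M21 (GRCm38), and promoters are from RefSeq.

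The 41 genes and the other lists were chosen with earlier results of these data known. Described in full are Nnmt, members with an unadjusted p under 0.05, and the most abundant member per kilobase of each role. Of the other ER pathway, ISR and heat shock lists, genes with an unadjusted p under 0.05 are named, and cell type markers are given as counts and sums, apart from Alb, Cyp2e1 and Spp1. Alternatives were DESeq2 1.42.0, its size factors, scaling by library size only, no filter, and each library left out in turn. Reads shared with near-identical copies or overlapping genes could have been split by the counting, and 7 of the 41 genes share exon bases with a tested gene on the opposite strand.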

Additional observations from a re-analysis of the deposited data

Results flagged for a closer look

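In 9 of 82 groups of 4 libraries (41 genes in 2 genotypes), 1 library stood far from the other 3 by Dixon's criterion (critical value 0.829), where chance alone gives about 4.1. These are given as values, and no cause was tested. In KO library d, Hspa5 was at 1030.4 CPM (722 to 759 in the other KO libraries), Pdia3 at 390.1 CPM (294 to 308), Sec61g at 55.2 CPM (33.2 to 35.3), Ssr1 at 141 CPM (109 to 113) and Spcs3 at 66.4 CPM (42.0 to 46.1). In KO library a, Edem1 was at 132 CPM (162 to 168). In control library c, Pdia3 was at 359 CPM (284 to 289 in the other control libraries) and Atf6 at 104 CPM (113 to 114). In control library d, Spcs2 was at 109.7 CPM (126 to 129). Of the 9, 5 were high values in KO library d.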

How the results depend on the processing

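No paired analysis was possible because the columns of counts carry no mouse numbers and cannot be tied to single mice. Of 492 log2 fold changes of the members (41 genes under 12 alternatives), 423 kept their direction and their side of the unadjusted limit, 15 lost it, 11 gained it and 43 changed sign. 27 members kept their direction in all 12. Creld2 (0.41 to 0.65), Ern1 (-0.54 to -0.40) and Spcs2 (-0.55 to -0.34) stayed past the unadjusted limit throughout, and Ssr2 lost it in 2.

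The number of all genes past an adjusted p of 0.05 was 49, and 30 with DESeq2's size factors, 22 with scaling by library size only, 478 with DESeq2's Wald test, 8 without a filter and between 6 and 149 with a library left out, the 149 without KO library a. The number at an unadjusted p of 0.05 was 1925, and between 1259 (without control library a) and 2194 (without control library c) with a library left out, 1438 with scaling by library size only, 2212 with DESeq2's Wald test and 2214 without a filter. DESeq2 called 2 members at an adjusted p of 0.05. The members lower at an unadjusted p of 0.05 were 3 with scaling by library size only and between 2 (without control library a) and 8 (without control library d) with a library left out. They were 3 without KO library a, KO library b or control library c. The members higher at that limit were between 1 and 3, the 3 without control library c (Creld2, Dnajc10 and Edem3). The shares of all tested genes lower and higher at this limit were not computed for these settings. The median log2 fold change of the members was 0.01 with scaling by library size only, where that of all genes was 0.07, and between -0.14 and 0.01 with a library left out, the 0.01 without KO library a. The cause of these shifts was not tested.

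With scaling by library size only, the sign changed for Hyou1 (0.011), Dnajb11 (0.024), Sdf2l1 (0.030), Pdia6 (0.012), Edem1 (0.027), Ssr3 (0.0051), Spcs1 (0.037) and Spcs3 (0.026). With a library left out, the values of the genes that changed sign ran from -0.44 to 0.089 for Derl3, from -0.097 to 0.017 for Dnajb11, from -0.038 to 0.18 for Dnajb9, from -0.072 to 0.064 for Edem1, from -0.11 to 0.13 for Hspa5, from -0.082 to 0.071 for Hyou1, from -0.026 to 0.17 for Pdia3, from -0.13 to 0.0072 for Pdia6, from -0.15 to 0.090 for Sdf2l1, from -0.010 to 0.36 for Sec62, from -0.13 to 0.059 for Spcs1, from -0.18 to 0.068 for Spcs3, from -0.17 to 0.030 for Ssr3 and from -0.062 to 0.087 for Syvn1. The count of members below 0, the share of all genes below 0 and the median of all genes were chosen after seeing the data. With 4 mice per genotype, the median standard error of a member was 0.14 on the log2 scale, and the lowest count of a member in a library was 136, for Derl3, and 1115 for the others.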
